A study of Mus musculus with 10 samples.

Results

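The mammalian genome is kept intact by several repair systems that share substrates, and 31 genes of these systems are described here in mouse mesenchymal stem cells. They were 11 genes of homologous recombination, 7 of the Fanconi anemia pathway, the mismatch repair gene Msh6, 5 of DNA end joining, 4 damage checkpoint kinases, 2 of base excision and single-strand break repair, and Rad18 of damage tolerance. Members were matched by gene name among the 34717 gene names of the array, and the brightest probe stood for each gene. All 31 were on the array, and all 31 passed the filter on dim genes, which asks that both cultures of some group have a signal well above background and which left 22596 genes to test.

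Total RNA of 10 cultures was measured on single-colour oligonucleotide arrays, 1 array per culture, in 5 groups of 2 cultures from mice of the FVB strain. The tumor line was grown from a tumor that arose under the skin of immunodeficient NSG mice after injection of primed null cells from bone marrow. It is a single line, and some of its labels name the tumor itself. Null BM-MSC (bone marrow) and null ASC (adipose tissue) were labelled Rb p53 double-knockout. By the culture protocol they carried loxP-flanked Rb and p53 alleles, were kept for 10 days in osteogenic medium, and were afterwards infected with an adenovirus that carries Cre recombinase under the CMV promoter, although the source labels name Rb-/-p53-/- mice. For wild-type cells of the same 2 tissues (wild-type BM-MSC, wild-type ASC) the labels give neither osteogenic medium nor virus. Cells were at passages 2 to 5, and the duplicates were independent cultures in exponential growth. Tumorigenic is the label of the tumor line and of null BM-MSC, and non-tumorigenic that of the other 3 groups. Null status, osteogenic priming and virus cannot be told apart in the comparison of null with wild-type cells. Null BM-MSC and null ASC also sat on another line of slide positions than the wild-type cells, which cannot be told apart either. The tumor line sat on a slide of its own, so its comparisons cannot be told apart from that slide. It had the line of positions of the wild-type cells, so it differed from null BM-MSC in line as well.

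Homologous recombination copies the sister chromatid to mend a double-strand break, and it works mainly in S and G2 phase. The Fanconi anemia proteins recognise DNA crosslinks and pass them to recombination, mismatch repair corrects replication errors, and end joining ligates broken ends directly throughout the cell cycle. The Rb protein holds back the E2F transcription factors, whose targets include many genes of DNA replication and recombination, and p53 is itself a substrate of the damage kinases.

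Levels are given as log2 signal relative to the 75th percentile of the same array, so that 1 unit is a doubling, and a level of one gene cannot be set against that of another because probes differ. Changes are log2 differences between group means with their standard errors (SE), from one limma model over all 5 groups, with p-values adjusted by the Benjamini-Hochberg method over all 22596 genes and a threshold of 0.05. The probes of 29 members were well above background on all 10 arrays. Brca1 reached this on 6 arrays and on none of wild-type ASC, and Palb2 on 9. Between 53.3% and 58.4% of probes per array were well above background, and no spot was saturated.

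The targeted genes were lower in all labelled null cultures, to different degrees. Rb1 was at -1.98 and -1.97 in the tumor line, 0.65 and 0.54 in null BM-MSC and -1.91 and -1.97 in null ASC, against 1.90 and 1.92 in wild-type BM-MSC and 1.31 and 1.31 in wild-type ASC. Trp53 was at -0.89 and -1.11 in null BM-MSC and -4.49 and -5.12 in null ASC, against 0.83 and 0.71 in wild-type BM-MSC and 1.11 and 1.02 in wild-type ASC, and was not well above background on either array of the tumor line. Null BM-MSC thus kept more signal of both genes than null ASC did. Where these probes lie relative to the floxed parts was not examined. All 12 mesenchymal markers were well above background in every group, while 2 to 3 of 7 endothelial markers were so on both arrays of each group. The endothelial markers summed to between 2.80 and 4.57 on the 10 arrays, and Cdh5, Tek and Tie1 were well above background in no group. Sums are on the linear scale relative to the 75th percentile. Over 24 genes, proliferation markers reached 678 to 680 in the tumor line, 440 to 447 in null BM-MSC and 562 to 565 in null ASC, against 290 to 315 in wild-type BM-MSC and 219 to 235 in wild-type ASC. Aurkb was the 1 marker not well above background in any group. By group mean, 11 of the 31 members had this same order of the 5 groups (Brca1, Brip1, Rad51ap1, Rad54l, Blm, Fancb, Fancd2, Fanci, Fancm, Polq and Neil3). The share of all genes with this order was not counted, so the 11 cannot be set against it. The part of proliferation in the results was not tested. In cultures, fewer cells expressing a gene and less RNA per cell cannot be told apart.

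More members rose than fell in null cells of either tissue, and the median change was larger in ASC. In null against wild-type BM-MSC, 14 members rose and 1 fell at an adjusted p under 0.05, where 39.5% of all genes were called, 19.3% higher and 20.2% lower. The median change was 0.28 over members and 0.01 over all genes. In null against wild-type ASC, 21 members rose and 3 fell, where 41.5% of all genes were called, 20.3% higher and 21.2% lower. There the medians were 0.78 over members and -0.03 over all genes. The tumor line also had more members higher than lower. Against null BM-MSC it had 23 members higher and 6 lower, where 69.5% of all genes were called, 34.6% higher and 35% lower. Against wild-type BM-MSC it had 24 higher and 2 lower, where 67.8% were called, 33% higher and 34.8% lower. Its median changes over members were 0.82 and 1.02, against medians over all genes of -0.05 and -0.06. These 2 comparisons share the tumor line arrays, and each shares BM-MSC arrays with the comparison of null with wild-type BM-MSC.

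The branches differed in how they moved, where 19.3% of all genes rose and 20.2% fell in null BM-MSC, and 20.3% rose and 21.2% fell in null ASC. Of the 11 recombination genes, 6 rose in null BM-MSC and 9 in null ASC, with median changes of 0.41 and 1.15, and none fell. Of the 7 Fanconi genes, 2 and 5 rose, with medians of 0.33 and 1.27, and none fell. Msh6 rose by 0.31 in null ASC and was not called in null BM-MSC. Of the 5 end-joining genes, 3 rose in null BM-MSC, and 2 rose and 2 fell in null ASC, with medians of 0.19 and 0.03. Among the 4 checkpoint kinases, 1 fell in null BM-MSC, and 1 rose and 1 fell in null ASC, with medians of -0.09 and -0.05. The difference between branches itself was not tested.

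**Figure D1:**
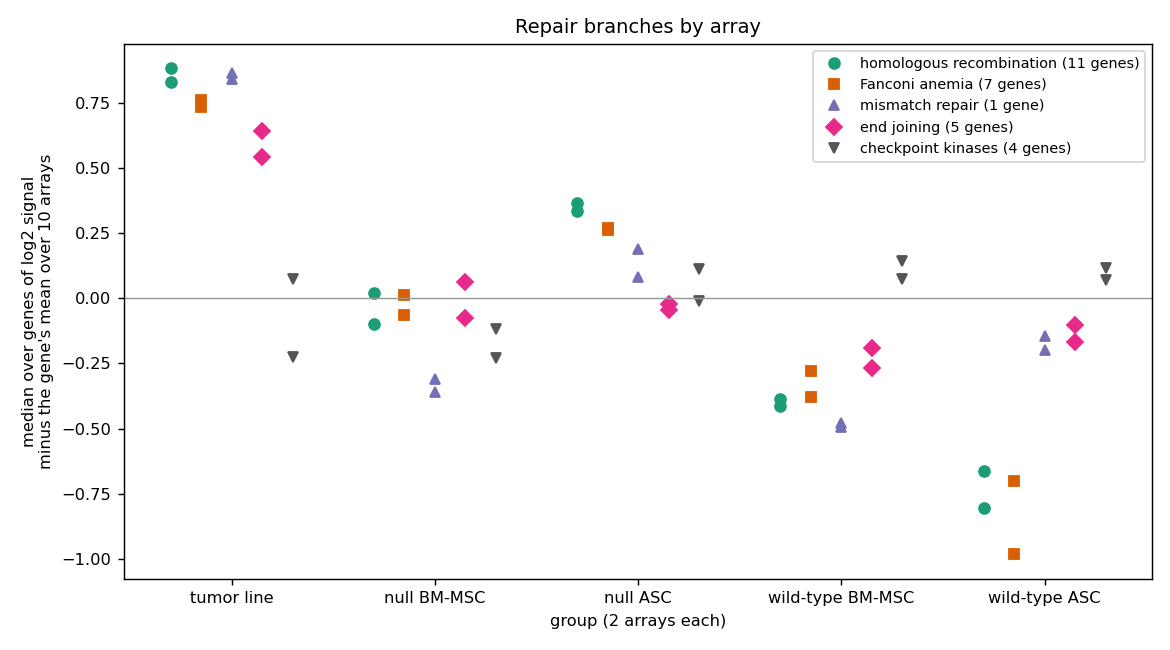
Median over the genes of each repair branch of the log2 signal minus the gene's mean over all 10 arrays, by group on the horizontal axis, with 1 point per array. Medians of recombination and Fanconi genes sat between 0.74 and 0.88 in the tumor line and between 0.26 and 0.37 in null ASC. They lay at -0.41 to -0.28 in wild-type BM-MSC and -0.98 to -0.66 in wild-type ASC. The median over the 4 checkpoint kinases stayed between -0.23 and 0.14 on all 10 arrays. Single kinases moved apart, with 1 called higher and 2 lower in the tumor line against null BM-MSC.

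The promoters of the 4 members with the largest summed change in null cells, among the 26 members held by the RefSeq promoter table (build GRCm38.p6), are shown because their letters bear on a known class of Rb targets. Each runs from 250 bases before the start site to 50 after it, on the strand of the gene, and Xrcc5 is added as a gene that fell in null ASC, a choice made after its values were seen. Capitals mark a match to TTGGCGC or TTCCCGC or TTGCCGC or TTCGCGC on either strand, the core of E2F binding sites.
Brca1, chr11:101551906-101552205, minus strand: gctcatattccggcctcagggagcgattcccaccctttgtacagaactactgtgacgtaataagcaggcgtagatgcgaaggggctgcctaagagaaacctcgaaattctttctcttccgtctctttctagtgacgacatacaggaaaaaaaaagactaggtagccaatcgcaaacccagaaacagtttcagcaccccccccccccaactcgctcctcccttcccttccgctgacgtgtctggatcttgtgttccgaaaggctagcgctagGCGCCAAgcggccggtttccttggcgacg
Fancb, chrX:164980342-164980641, plus strand: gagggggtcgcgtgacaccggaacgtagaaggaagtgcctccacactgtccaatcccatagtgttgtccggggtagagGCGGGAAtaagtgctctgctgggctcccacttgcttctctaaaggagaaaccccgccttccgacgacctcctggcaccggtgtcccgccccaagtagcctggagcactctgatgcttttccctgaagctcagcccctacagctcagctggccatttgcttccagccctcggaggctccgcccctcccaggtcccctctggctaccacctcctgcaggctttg
Polq, chr16:37011536-37011835, plus strand: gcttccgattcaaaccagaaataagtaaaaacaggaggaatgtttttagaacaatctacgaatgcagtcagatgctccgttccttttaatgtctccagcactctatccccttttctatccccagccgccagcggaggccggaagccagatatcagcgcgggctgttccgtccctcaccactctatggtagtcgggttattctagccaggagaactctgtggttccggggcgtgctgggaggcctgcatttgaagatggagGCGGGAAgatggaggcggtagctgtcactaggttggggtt
Rad51ap1, chr6:126939538-126939837, minus strand: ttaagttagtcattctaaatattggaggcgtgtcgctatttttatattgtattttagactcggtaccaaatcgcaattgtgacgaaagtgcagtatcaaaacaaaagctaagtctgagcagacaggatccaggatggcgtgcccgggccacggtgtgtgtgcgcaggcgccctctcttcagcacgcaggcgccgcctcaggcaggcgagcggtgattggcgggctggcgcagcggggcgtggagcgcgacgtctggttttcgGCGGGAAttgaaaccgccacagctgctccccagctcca
Xrcc5, chr1:72307171-72307470, plus strand: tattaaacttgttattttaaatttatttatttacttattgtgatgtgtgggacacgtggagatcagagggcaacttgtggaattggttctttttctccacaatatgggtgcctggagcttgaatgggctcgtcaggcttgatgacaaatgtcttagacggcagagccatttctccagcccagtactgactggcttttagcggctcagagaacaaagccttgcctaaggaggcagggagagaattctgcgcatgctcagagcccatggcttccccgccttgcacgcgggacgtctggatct
Brca1 is among the 4 through a change measured against wild-type ASC, where its probe was not well above background. The match lay 22 bases after the start site in Brca1, 11 after it in Polq, 13 after it in Rad51ap1 and at position -172 from it in Fancb, and Xrcc5 had none in this window. Of the members called lower in null ASC, Lig4 had a match, and Atr, like Xrcc5, had none. Among those called higher there, Fanca, Neil3, Palb2, Rad18, Rad54l and Xrcc1 had none. The others called higher and held by the table had at least 1. Whether matches go with the direction of change was not tested. In all, 17 of the 26 member genes had a promoter with at least 1 of these 4 words, against 10.9% of the 27025 genes in the table, whose promoters have the same length. The longer words TTTGGCGC and TTTCCCGC and TTTGCCGC and TTTCGCGC, each of which contains one of the shorter ones, were searched first and matched in 6 of the 26 but in none of the 4 chosen promoters, against 2.60% of all genes. The shorter words were taken up after that search. CCAAT, whose reverse strand can overlap TTGGCGC, occurred for 16 of 26 member genes and 41.1% of all genes, and TTTGAA for 2 of 26 and 20.2% of all. A match is a description of the letters and not evidence of binding.

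Brca1 forms a ubiquitin ligase with Bard1 at broken ends and brings in Palb2, which in turn recruits Brca2. Brca1 was dim, at -3.19 and -3.02 in the tumor line, -4.42 and -5.18 in null BM-MSC and -4.73 and -4.65 in null ASC, against -5.75 and -5.22 in wild-type BM-MSC and -7.48 and -6.45 in wild-type ASC. Both tumor line arrays lay above all others and both wild-type ASC arrays below all others. Since no wild-type ASC array was well above background, the rise in null ASC is given as a bound, at least 1.82-fold (limma adjusted p = 0.00411). In null BM-MSC the change of 0.68 ± 0.39 was not called (adjusted p = 0.227). Brca2, a mediator of strand exchange on single-stranded DNA, was at 1.45 and 1.40 in the tumor line, 0.80 and 0.80 in null BM-MSC and 0.56 and 0.38 in null ASC, against 0.46 and 0.53 in wild-type BM-MSC and -0.37 and -0.26 in wild-type ASC. It rose by 0.30 ± 0.07 in null BM-MSC and by 0.78 ± 0.07 in null ASC (limma adjusted p = 0.0183 and 0.000302). Null ASC and wild-type BM-MSC overlapped in Brca2. Bard1 ranged from 0.72 to 2.02, was highest in null ASC, and rose by 0.35 ± 0.07 in null BM-MSC and by 1.15 ± 0.07 in null ASC. Palb2 ranged from -5.10 to -2.58 and was highest in the tumor line. Its rise of 0.91 ± 0.27 in null ASC was called (adjusted p = 0.0362) but was lost without either array of null ASC or of wild-type ASC (adjusted p = 0.106 to 0.123). In BM-MSC the change of 0.41 ± 0.27 was not called, and became 0.84 without wild-type BM-MSC culture 2 (adjusted p = 0.0135).

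Genes that promote strand invasion stepped between groups. Rad51ap1, which stimulates that step, was at 3.51 and 3.50 in the tumor line, 2.63 and 2.69 in null BM-MSC and 2.95 and 2.84 in null ASC, against 2.02 and 1.88 in wild-type BM-MSC and 1.21 and 1.25 in wild-type ASC. No 2 of the 5 groups overlapped, and the null change was 0.71 ± 0.06 in BM-MSC and 1.67 ± 0.06 in ASC (limma adjusted p = 0.000312 and 1.18e-05). Rad54l, a motor protein that translocates on DNA, was at 0.36 and 0.37 in the tumor line, -0.47 and -0.45 in null BM-MSC and -0.36 and -0.39 in null ASC, against -1.07 and -1.12 in wild-type BM-MSC and -2.15 and -2.02 in wild-type ASC. Its null changes were 0.64 ± 0.06 in BM-MSC and 1.71 ± 0.06 in ASC (adjusted p = 0.000288 and 8.20e-06), and null BM-MSC and null ASC did not differ past the threshold (adjusted p = 0.271). Brip1, a helicase that binds Brca1, was at -1.30 and -1.35 in the tumor line, -2.16 and -2.28 in null BM-MSC and -1.49 and -1.92 in null ASC, against -2.41 and -2.46 in wild-type BM-MSC and -2.96 and -3.49 in wild-type ASC. It rose by 1.53 ± 0.20 in null ASC (adjusted p = 0.00122), while in BM-MSC the change of 0.22 ± 0.20 was not called (adjusted p = 0.45).

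The genes that start recombination by trimming the break did not move as a block. Exo1, an exonuclease that resects ends, was at 1.75 and 2.53 in the tumor line, 1.61 and 1.66 in null BM-MSC and 2.61 and 2.65 in null ASC, against 1.14 and 1.11 in wild-type BM-MSC and 0.88 and 1.03 in wild-type ASC. The tumor line arrays were far apart, and null ASC was the highest group. The null rise of Exo1 was 1.67 ± 0.23 in ASC (limma adjusted p = 0.00148), and its change of 0.51 ± 0.23 in BM-MSC was not called (adjusted p = 0.13). That change passed without either tumor line array, whose spread enters the model (adjusted p = 0.00292). It also passed with only the null and wild-type BM-MSC arrays in the fit (0.011) and with an intensity trend (0.0484). Rad50 and Nbn belong to the complex that first binds a break. Rad50 was at 2.44 and 2.47 in the tumor line, 2.02 and 1.95 in null BM-MSC and 2.42 and 2.50 in null ASC, against 2.20 and 2.08 in wild-type BM-MSC and 2.36 and 2.46 in wild-type ASC. It was lowest in null BM-MSC, although its null change of -0.15 ± 0.06 was not called (limma adjusted p = 0.11). Nbn was at -1.34 and -1.30 in the tumor line, -0.94 and -0.80 in null BM-MSC and -0.93 and -1.05 in null ASC, against -1.51 and -1.70 in wild-type BM-MSC and -1.32 and -1.02 in wild-type ASC. Nbn rose by 0.74 ± 0.12 in null BM-MSC (adjusted p = 0.0036), and the ASC arrays overlapped between genotypes. Blm, the helicase that dissolves recombination intermediates, ranged from -0.24 to 1.67 and rose in null ASC by 1.14 ± 0.10 and in null BM-MSC by 0.37 ± 0.10.

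**Figure D2:**
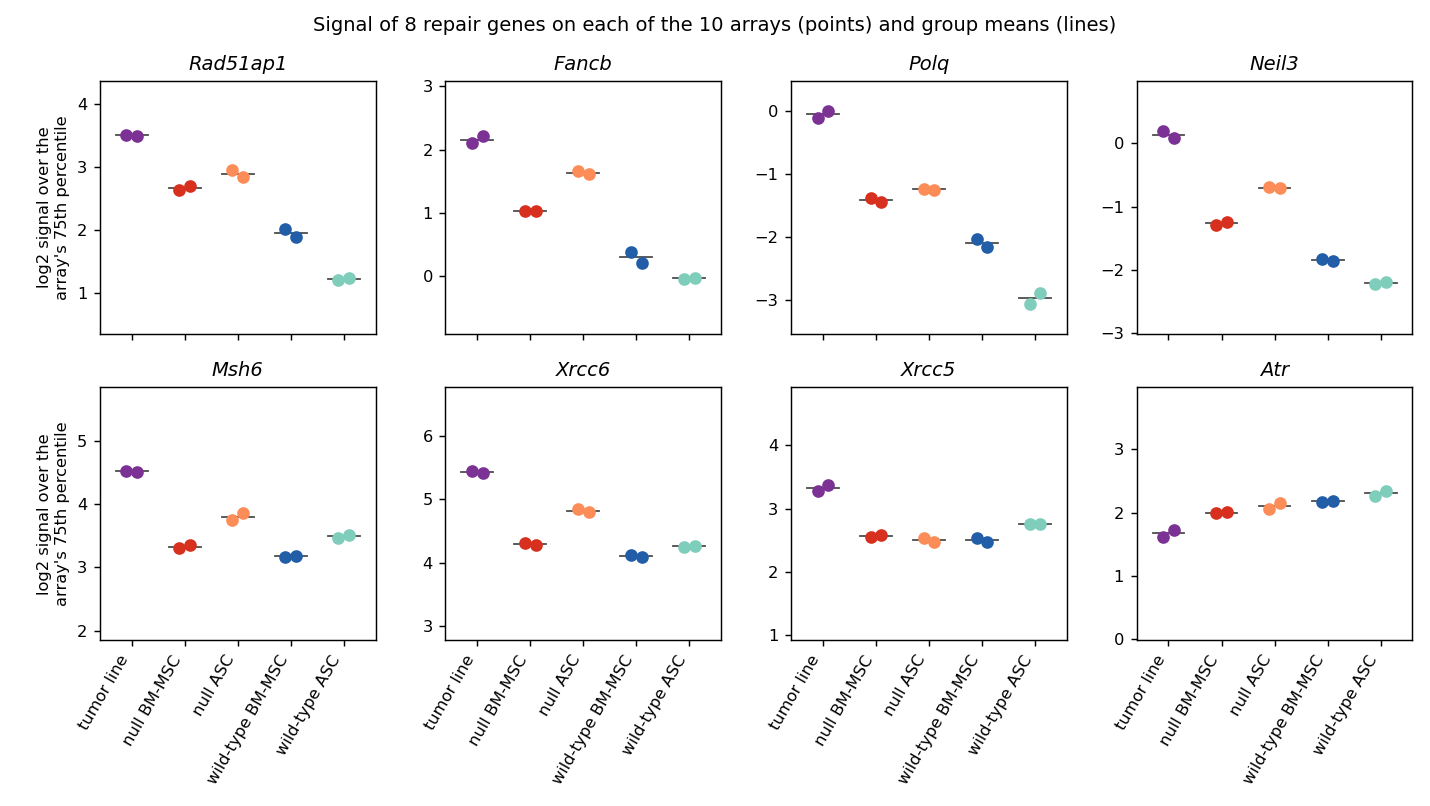
Log2 signal over the array's 75th percentile for 8 members, 1 panel per gene with its own offset and the same span of the axis, points for the 10 arrays and lines for group means. Rad51ap1 was highest in the tumor line at 3.51 and 3.50 and lowest in wild-type ASC at 1.21 and 1.25, whereas Atr was lowest in the tumor line at 1.62 and 1.72.

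Within the Fanconi pathway, Fanca and Fancb rose in null cells of both tissues. Fancd2, Fanci and Fancm were called in ASC and not in BM-MSC, and Fancc and Fancg in neither. Fancb, a core complex subunit, was at 2.10 and 2.21 in the tumor line, 1.03 and 1.03 in null BM-MSC and 1.66 and 1.61 in null ASC, against 0.38 and 0.20 in wild-type BM-MSC and -0.04 and -0.03 in wild-type ASC. No groups overlapped, and its null change was 0.74 ± 0.07 in BM-MSC and 1.67 ± 0.07 in ASC (limma adjusted p = 0.000401 and 1.62e-05). Fancd2, which the core complex marks with ubiquitin together with Fanci, was at -0.74 and -0.84 in the tumor line, -2.45 and -2.36 in null BM-MSC and -1.43 and -1.19 in null ASC, against -2.75 and -2.77 in wild-type BM-MSC and -3.02 and -2.73 in wild-type ASC. Its rise in null ASC was 1.56 ± 0.12 (adjusted p = 0.000122), and its change of 0.35 ± 0.12 in null BM-MSC missed the threshold (adjusted p = 0.0551) but passed it when any one ASC array was left out (adjusted p = 0.0307 to 0.0483). The partner Fanci was at 1.44 and 1.57 in the tumor line, -0.03 and -0.01 in null BM-MSC and 0.34 and 0.44 in null ASC, against -0.11 and -0.21 in wild-type BM-MSC and -1.06 and -0.70 in wild-type ASC. As with Fancd2, its null rise was called in ASC (1.27 ± 0.12, adjusted p = 0.000328) and not in BM-MSC (0.14 ± 0.12, adjusted p = 0.414). 

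Fanca, a core subunit, was at 1.59 and 1.62 in the tumor line, 0.47 and 0.68 in null BM-MSC and 1.73 and 1.80 in null ASC, against 0.01 and -0.07 in wild-type BM-MSC and 0.36 and 0.40 in wild-type ASC. Null ASC thus lay above every other group. Fancm, the translocase that anchors the core complex on DNA, ranged from -1.41 to -0.65 and rose by 0.58 ± 0.08 in null ASC. Fancc and Fancg, also core subunits, differed by tissue, and neither was called between null and wild-type cells. The closest was Fancc in BM-MSC (0.33 ± 0.11, limma adjusted p = 0.0654), which passed the threshold under 8 alternatives (adjusted p = 0.0149 to 0.0466). In ASC Fancc passed without null ASC culture 2 (adjusted p = 0.0462). Fancg in BM-MSC, at -0.20 ± 0.10, passed without either wild-type ASC array (limma adjusted p = 0.0472). Fancc was at -0.30 and -0.20 in the tumor line, 0.25 and 0.25 in null BM-MSC and -1.42 and -1.74 in null ASC, against -0.10 and -0.05 in wild-type BM-MSC and -1.67 and -1.86 in wild-type ASC. The BM-MSC were higher than ASC by 1.83 ± 0.11 in null and 1.69 ± 0.11 in wild-type cells (limma adjusted p = 2.21e-05 and 3.41e-05). A second Fancc probe showed no such step, with 0.04 in null and -0.01 in wild-type cells. Fancg was at -2.34 and -2.40 in the tumor line, -1.52 and -1.41 in null BM-MSC and -2.57 and -2.50 in null ASC, against -1.29 and -1.24 in wild-type BM-MSC and -2.71 and -2.42 in wild-type ASC. The tumor line lay closer to the ASC in Fancg than to the BM-MSC from which it came.

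Msh6, a subunit of a complex that recognises mismatches, was at 4.53 and 4.51 in the tumor line, 3.30 and 3.35 in null BM-MSC and 3.74 and 3.85 in null ASC, against 3.17 and 3.18 in wild-type BM-MSC and 3.47 and 3.52 in wild-type ASC. The tumor line was 2.28-fold above null BM-MSC (1.19 ± 0.05, limma adjusted p = 3.01e-06). Null BM-MSC differed from wild-type BM-MSC by 0.15 ± 0.05, which was not called (limma adjusted p = 0.0617). That change passed the threshold with an intensity trend (limma adjusted p = 0.0174) and with only probes well above background on all arrays (0.0439).

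Among the end-joining members Polq had the largest change in null cells of both tissues. Polq, the polymerase of microhomology-mediated joining, was at -0.11 and 0.00 in the tumor line, -1.38 and -1.45 in null BM-MSC and -1.24 and -1.25 in null ASC, against -2.02 and -2.15 in wild-type BM-MSC and -3.06 and -2.88 in wild-type ASC. It rose by 0.67 ± 0.08 in null BM-MSC and by 1.72 ± 0.08 in null ASC (limma adjusted p = 0.000963 and 2.12e-05). The classical genes changed by at most 0.57 in either tissue. Xrcc6, the smaller Ku subunit that caps broken ends, was at 5.46 and 5.42 in the tumor line, 4.31 and 4.28 in null BM-MSC and 4.85 and 4.80 in null ASC, against 4.12 and 4.09 in wild-type BM-MSC and 4.24 and 4.27 in wild-type ASC. It rose by 0.57 ± 0.04 in null ASC. Its partner Xrcc5 was at 3.28 and 3.38 in the tumor line, 2.55 and 2.59 in null BM-MSC and 2.54 and 2.47 in null ASC, against 2.54 and 2.47 in wild-type BM-MSC and 2.76 and 2.76 in wild-type ASC. It fell by 0.25 ± 0.06 in null ASC (adjusted p = 0.0118), so the Ku subunits moved in opposite directions there.

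Prkdc, the kinase that Ku recruits, lay between 0.51 and 0.74 on the 8 non-tumor arrays and at 1.03 and 0.97 in the tumor line. Its null changes of 0.06 ± 0.08 in BM-MSC and 0.03 ± 0.08 in ASC were not called (limma adjusted p = 0.558 and 0.771). Lig4, the ligase of the pathway, was at 0.98 and 1.07 in the tumor line, 1.21 and 1.21 in null BM-MSC and 0.98 and 1.06 in null ASC, against 0.94 and 0.92 in wild-type BM-MSC and 1.23 and 1.24 in wild-type ASC. It rose by 0.28 ± 0.05 in null BM-MSC and fell by 0.22 ± 0.05 in null ASC (adjusted p = 0.00588 and 0.0159). It was the 1 member called in opposite directions in the 2 tissues, which were compared on separate arrays.

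Changes of the apex kinases Atm and Atr in null cells were small, at most 0.38. Atr, the kinase that senses stalled replication, was at 1.62 and 1.72 in the tumor line, 1.99 and 2.00 in null BM-MSC and 2.06 and 2.15 in null ASC, against 2.17 and 2.18 in wild-type BM-MSC and 2.27 and 2.34 in wild-type ASC. It fell by 0.18 ± 0.06 in null BM-MSC and by 0.20 ± 0.06 in null ASC (limma adjusted p = 0.0468 and 0.0319), the 1 member called lower in both. These calls rest on the brighter of 2 probes. The mean over both probes gave -0.31 in BM-MSC and -0.04 in ASC, neither called (limma adjusted p = 0.209 and 0.871). Atm, the kinase that senses double-strand breaks, was at -1.28 and -1.36 in the tumor line, -1.05 and -0.94 in null BM-MSC and -1.27 and -1.11 in null ASC, against -1.08 and -1.15 in wild-type BM-MSC and -1.62 and -1.52 in wild-type ASC. Atm rose by 0.38 ± 0.08 in null ASC. Chek1, the effector kinase of Atr, lay between -4.61 and -3.71 on all 10 arrays with every group overlapping another, and was called in none of the 7 contrasts. Its largest null change was -0.43 ± 0.29 in null BM-MSC. That SE is large against the median of 0.0946 over all genes tested, so a change of moderate size could be missed. Chek2, the effector of Atm, was at -0.70 and -0.65 in the tumor line, -1.57 and -1.69 in null BM-MSC and -0.97 and -1.14 in null ASC, against -1.54 and -1.71 in wild-type BM-MSC and -1.18 and -0.87 in wild-type ASC. The null change of Chek2 was -0.01 ± 0.12 in BM-MSC and -0.03 ± 0.12 in ASC, and its 1.94-fold excess in the tumor line over null BM-MSC was called (adjusted p = 0.000471).

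Both base excision members and Rad18 rose in null cells of either tissue. Neil3, a glycosylase that removes oxidised bases and opens crosslinks, was at 0.19 and 0.09 in the tumor line, -1.30 and -1.24 in null BM-MSC and -0.70 and -0.71 in null ASC, against -1.83 and -1.86 in wild-type BM-MSC and -2.22 and -2.19 in wild-type ASC. None of its groups overlapped. Its null changes were 0.58 ± 0.05 in BM-MSC and 1.50 ± 0.05 in ASC (limma adjusted p = 0.000307 and 9.49e-06). Xrcc1, the scaffold of single-strand break repair, was at 4.34 and 4.34 in the tumor line, 3.27 and 3.30 in null BM-MSC and 3.97 and 3.95 in null ASC, against 3.02 and 3.02 in wild-type BM-MSC and 3.64 and 3.58 in wild-type ASC. Xrcc1 rose by 0.26 ± 0.04 and 0.35 ± 0.04 in null BM-MSC and null ASC. Rad18, the ligase that marks PCNA for damage bypass, was at 1.35 and 1.32 in the tumor line, 0.81 and 0.85 in null BM-MSC and 1.63 and 1.49 in null ASC, against 0.57 and 0.59 in wild-type BM-MSC and 0.20 and 0.29 in wild-type ASC. It rose by 0.25 ± 0.06 in null BM-MSC and by 1.31 ± 0.06 in null ASC. The BM-MSC call of Rad18 was lost without any one of the 4 BM-MSC arrays (limma adjusted p = 0.0636 to 0.0977).

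**Figure D3:**
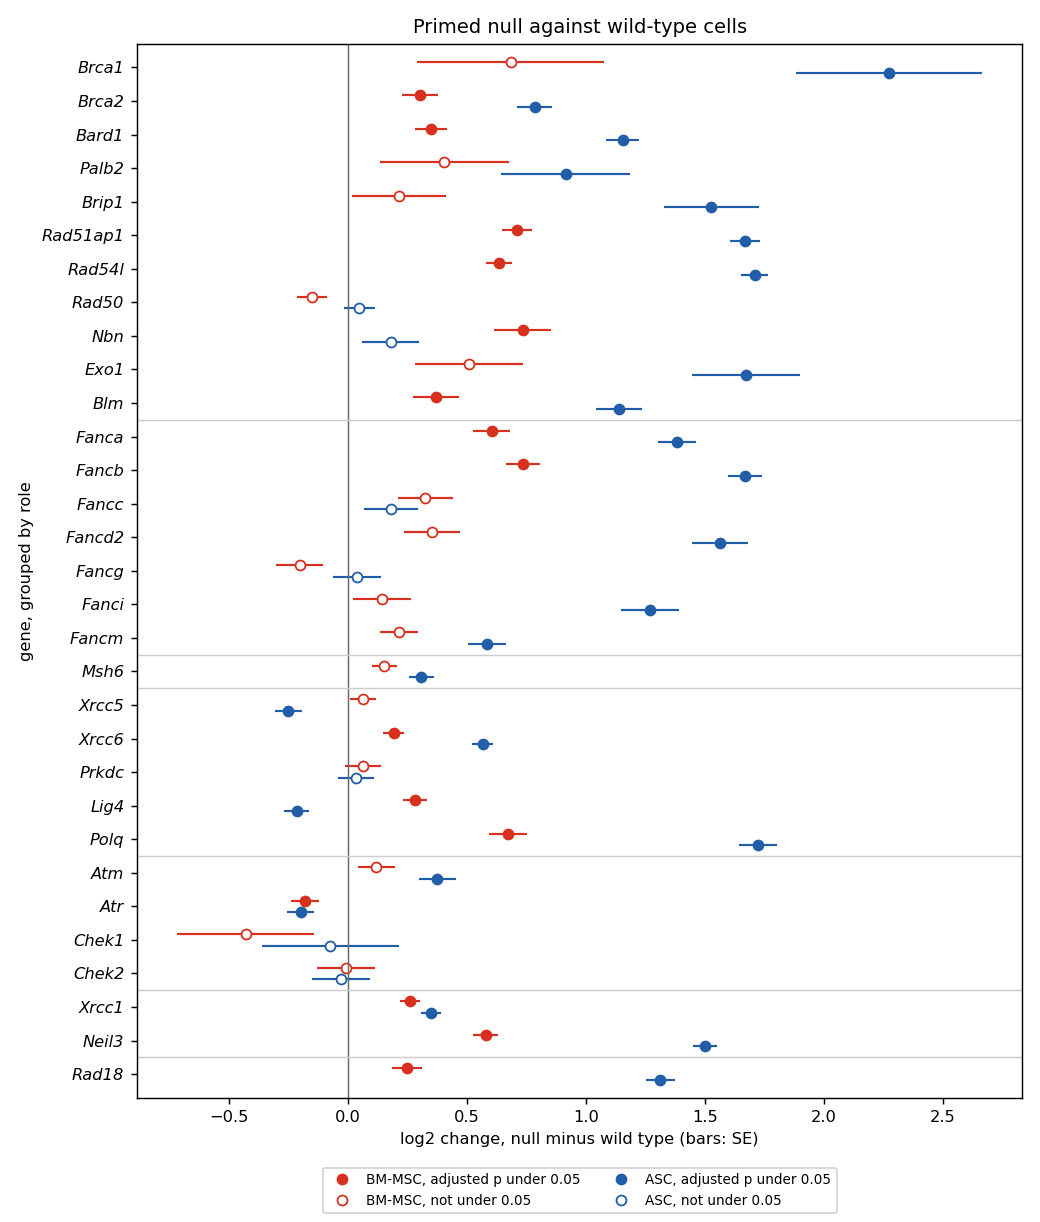
Log2 change of each of the 31 members in null against wild-type cells, for BM-MSC in red and ASC in blue, with bars for the SE and filled points where the adjusted p was under 0.05. ASC changes lie to the right of the BM-MSC changes for 24 of 31 members, with ASC values between -0.25 for Xrcc5 and 2.27 for Brca1, whose wild-type ASC signal was not well above background.

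Whether null and wild-type cells differed alike in the 2 tissues was asked with the difference of the null effects, BM-MSC minus ASC. It was lower for 16 members and higher for 3, where 31.8% of all genes were called, 16.6% lower and 15.3% higher. The median was -0.48 over members and 0.01 over all genes. The 16 were 7 recombination genes, 5 Fanconi genes, Xrcc6, Polq, Neil3 and Rad18. Among called members Brip1 had the most negative difference, -1.31 ± 0.28 (limma adjusted p = 0.0142), followed by Fancd2 at -1.21 ± 0.17 (adjusted p = 0.00251) and Exo1 at -1.16 ± 0.32 (adjusted p = 0.0352). The 3 higher members were Nbn at 0.56 ± 0.17 (adjusted p = 0.0485), Lig4 at 0.50 ± 0.07 (adjusted p = 0.0032) and Xrcc5 at 0.31 ± 0.08 (adjusted p = 0.0252). Of the 14 members that rose in null BM-MSC, 12 also rose in null ASC, which is 85.7% of the BM-MSC list and 57.1% of the ASC list. Over all genes these shares were 48.1% and 45.6%. Among the 23 tested proliferation markers, 19 rose in null BM-MSC (median 0.55) and 23 in null ASC (median 1.42), and 21 had a lower difference (median -0.72). Of 9 osteogenic markers, 6 rose and 0 fell in null BM-MSC (median 1.63), and 2 rose and 1 fell in null ASC (median 0.22). Of 9 macrophage markers, 0 rose and 5 fell in null BM-MSC (median -0.46), and 2 rose and 4 fell in null ASC (median -0.60). The part of either list in the null changes was not tested. The fall of Rb1 was -1.31 ± 0.05 in BM-MSC and -3.25 ± 0.05 in ASC, and that of Trp53 -1.77 ± 0.20 and -5.87 ± 0.20. The parts of proliferation and of remaining Rb1 and Trp53 signal in this difference were not tested.

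Calls near the threshold depended on single arrays. In null against wild-type BM-MSC, Rad51ap1, Rad54l, Nbn, Fancb, Lig4, Xrcc1 and Neil3 stayed called under every alternative, 7 of 15, and the fall of Atr was lost when any one of the null or wild-type arrays was left out (adjusted p = 0.0531 to 0.167). Brca2 was lost there without null BM-MSC culture 1 (adjusted p = 0.0746), null BM-MSC culture 2 (0.0781) or wild-type BM-MSC culture 1 (0.0929). In ASC 16 of 24 calls stayed, and the falls of Xrcc5, Lig4 and Atr were among the 8 that did not. Without null ASC culture 2 the adjusted p of Xrcc5 was 0.066, and without null ASC culture 1 those of Lig4 and Atr were 0.0874 and 0.153. In the difference of the effects 12 of 19 stayed. That of Xrcc5 had an adjusted p of 0.0821 without null BM-MSC culture 2, that of Nbn 0.137 and that of Exo1 0.0846. For Brca1 no difference is given, since wild-type ASC was not well above background.

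The tumor line against null BM-MSC asked what differed between the cells injected and the line grown from the tumor. The targeted genes differed as well, both called lower in the tumor line. Rb1 was at -2.57 against null BM-MSC, and Trp53 was not well above background in the tumor line. The part of this remaining Rb1 and Trp53 signal in the changes of members was not tested. The largest changes were those of Brca1 at 1.69 ± 0.39, Fancd2 at 1.62 ± 0.12 and Fanci at 1.52 ± 0.12 (limma adjusted p = 0.00781, 2.86e-05 and 4.44e-05), where Brca1 was well above background on 1 of the 2 null BM-MSC arrays. Of all genes, 34.6% were higher and 35% lower in this comparison. By branch, 9 recombination genes were higher and 1 lower (median 0.82), 5 Fanconi genes higher and 2 lower (median 1.04), 4 end-joining genes higher and 1 lower (median 0.76), and 1 kinase higher and 2 lower (median -0.08). The kinases thus did not stand out from those shares. Of the 4 classical end-joining genes, 3 were higher in the tumor line: Xrcc6 by 1.14 ± 0.04, Xrcc5 by 0.76 ± 0.06 and Prkdc by 0.32 ± 0.08 (adjusted p = 1.62e-06, 2.91e-05 and 0.00847). The 6 lower members were Fancg at -0.90 ± 0.10, Fancc at -0.50 ± 0.11, Nbn at -0.45 ± 0.12, Atr at -0.32 ± 0.06, Atm at -0.32 ± 0.08 and Lig4 at -0.18 ± 0.05. Of these, Fancg kept its call under every alternative. Without null BM-MSC culture 2 the adjusted p was 0.0748 for Nbn, 0.0584 for Atm and 0.0684 for Lig4, and without null BM-MSC culture 1 it was 0.0518 for Prkdc and 0.112 for Fancm. Exo1 at 0.51 ± 0.23 was not called (adjusted p = 0.0872), and stood at 0.90 without tumor line culture 1 (adjusted p = 0.000287). A second Atm probe gave 0.19 in place of -0.32, with no call, and a second Atr probe gave 0.05.

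**Figure D4:**
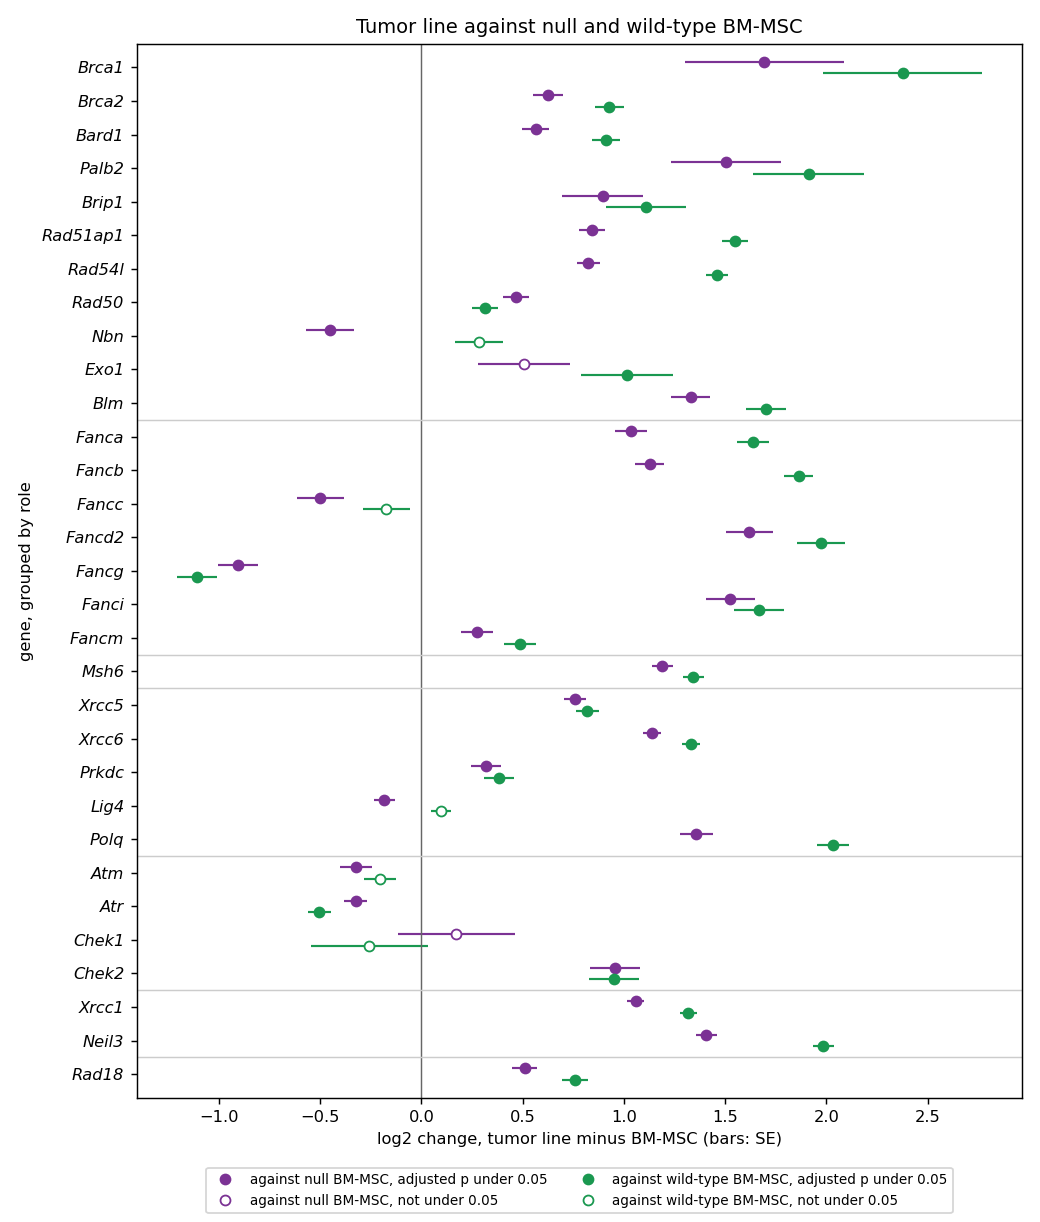
Log2 change of each of the 31 members in the tumor line, against null BM-MSC in purple and against wild-type BM-MSC in green, with bars for the SE and filled points where the adjusted p was under 0.05. Fancg at -0.90 and -1.11 and Atr at -0.32 and -0.50 are the members lower in both, and the 2 sets of changes share the tumor line arrays.

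Against wild-type BM-MSC the tumor line rose most in Brca1 (2.38 ± 0.39), Polq (2.03 ± 0.08) and Neil3 (1.99 ± 0.05, limma adjusted p = 3.76e-07), and fell in Fancg (-1.11 ± 0.10, adjusted p = 8.07e-05) and Atr (-0.50 ± 0.06, adjusted p = 0.000259). Brca1 was well above background on 1 of the 2 wild-type BM-MSC arrays. For 18 members both tumor line arrays lay above all 8 others, where 23.9% of all genes did so, and for 1, Atr, below, where 25.9% did. Proliferation markers were higher for 18 of 23 against null BM-MSC (median 0.65) and for 20 of 23 against wild-type BM-MSC (median 1.26), and their part in the result was not tested. Of 9 macrophage markers, 5 were higher and 3 lower in the tumor line against null BM-MSC (median 1.45), and likewise against wild-type BM-MSC (median 0.80). Their linear sum was nevertheless 13.6 to 14.5 in the tumor line, 22.3 to 23.4 in null BM-MSC and 28.8 to 29.0 in wild-type BM-MSC. Of 9 osteogenic markers, 2 were higher and 7 lower in the tumor line against null BM-MSC (median -2.43). The part of either list in the result was not tested.

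Tissue origin was compared within each genotype. In null BM-MSC against null ASC, 4 members were higher and 16 lower, where 55.4% of all genes were called, 26% higher and 29.4% lower (medians -0.41 and -0.02). The higher ones were Fancc, Fancg at 1.07 ± 0.10, Brca2 at 0.33 ± 0.07 and Lig4 at 0.19 ± 0.05, and the lowest were Fanca at -1.19 ± 0.08, Fancd2 at -1.10 ± 0.12 and Exo1, 0.501 times as high in null BM-MSC (limma adjusted p = 2.79e-05, 0.000282 and 0.00934). In wild-type BM-MSC against wild-type ASC, 13 were higher and 9 lower, where 54% of all genes were called, 25.7% higher and 28.3% lower (medians 0.12 and -0.05). Fancc and, at 1.31 ± 0.10, Fancg had the largest measured excess, Brca1 was higher by at least 1.05-fold (limma adjusted p = 0.0182), and Chek2 at -0.60 ± 0.12, Xrcc1 at -0.59 ± 0.04 and Nbn at -0.43 ± 0.12 were lowest. The Brca1 call was lost without wild-type BM-MSC culture 2 (adjusted p = 0.097) or wild-type ASC culture 1 (0.0745), and that of Nbn without wild-type BM-MSC culture 2 (0.113) or wild-type ASC culture 2 (0.0922). For 14 members both wild-type ASC arrays were below all 8 others, where 9.9% of all genes were, and 10 of these 14 belong to recombination or the Fanconi pathway. Wild-type BM-MSC were below all 8 others for 6 members (Nbn, Fanca, Msh6, Xrcc6, Lig4 and Xrcc1), where 8.43% of all genes were, and above for Fancg, where 9.51% were. Null ASC were above all 8 others for Bard1, Exo1, Fanca and Rad18, where 9.88% of all genes were, and below for 0 members, where 8.04% were. Null BM-MSC were above for Fancc and Atm, where 10.7% of all genes were, and below for Rad50, where 11.1% were. Wild-type ASC were above for Lig4 and Atr, where 12.9% were. Proliferation markers were lower for 18 of 23 in null BM-MSC against null ASC and higher for 14 of 23 in wild-type BM-MSC against wild-type ASC, and their part was not tested. Osteogenic markers were higher for 8 of 9 in BM-MSC of either genotype (medians 5.83 in null and 4.39 in wild-type cells). Of 5 tested adipocyte markers, 2 were higher and 2 lower in null BM-MSC and 3 higher and 1 lower in wild-type BM-MSC. The linear sum over 7 adipocyte markers was nevertheless far higher in ASC. It was 16.1 to 16.3 in null BM-MSC and 20.2 to 20.9 in wild-type BM-MSC, against 231 to 253 in null ASC and 261 to 274 in wild-type ASC. The part of these 2 lists was not tested either.

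Other genes of the same pathways were read from lists drawn up with earlier results known. Of all genes, 19.3% rose and 20.2% fell in null BM-MSC, and 20.3% rose and 21.2% fell in null ASC. Among 23 other recombination genes, 5 rose and 5 fell in null BM-MSC (median 0.13), and 18 rose and 2 fell in null ASC (median 0.73). At the ends of the list were Rad51b, another recombination gene, at -0.96 ± 0.09, and the nuclease Dna2 at 0.81 ± 0.17 in null BM-MSC, and the nuclease subunit Mus81 at -0.21 ± 0.06 and the helicase Recql4 at 1.88 ± 0.10 in null ASC. Rad51b turned round in the tumor line, 2.29 ± 0.09 above null BM-MSC. The 16 other Fanconi genes had 4 rises and 3 falls in null BM-MSC and 8 and 1 in null ASC, with Usp1, the enzyme that removes ubiquitin from Fancd2, the largest called rise in both at 0.92 ± 0.07 and 1.28 ± 0.07. The lowest were the nuclease Fan1 at -0.74 ± 0.16 in BM-MSC and the nuclease subunit Ercc4 at -0.69 ± 0.07 in ASC.

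Among 16 other genes of mismatch repair and its replication partners, 13 rose and 1 fell in null BM-MSC, and 15 rose and 0 fell in null ASC (medians 0.40 and 0.86). Their ends were Mlh3, a MutL subunit, at -1.47 ± 0.12 and the clamp Pcna at 0.76 ± 0.06 in BM-MSC, and the polymerase Pold1 at 1.44 ± 0.06 was the upper end in ASC. In the tumor line against null BM-MSC, Mlh3 stood at 3.61 ± 0.12 and Pcna at -0.64 ± 0.06. The 15 other end-joining genes split, with 4 rises and 5 falls in null BM-MSC (median 0.08) and 7 and 4 in null ASC (median 0.20). Rif1 at 0.82 ± 0.08 and Trp53bp1 at -0.54 ± 0.06, which limit resection together, were the ends in BM-MSC, and Paxip1 at 1.33 ± 0.23 and Parp3 at -0.49 ± 0.08 in ASC.

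Other checkpoint genes rose without a fall, 14 of 20 in each tissue (medians 0.29 and 0.53), and Clspn, the adaptor of Chek1, led in both at 0.85 ± 0.16 in BM-MSC and 1.94 ± 0.16 in ASC. The smallest rises were Rnf8 at 0.19 ± 0.05 in BM-MSC and Rad17 at 0.19 ± 0.05 in ASC. The 18 other base excision genes had 7 rises and 4 falls in null BM-MSC and 10 and 6 in null ASC, between Mbd4 at -0.40 ± 0.09 and Tdg at 0.96 ± 0.11, and between Smug1 at -0.31 ± 0.05 and Fen1 at 1.22 ± 0.06. Neil2, another glycosylase, was not well above background in the tumor line, at least 14.6-fold lower than in null BM-MSC (limma adjusted p = 4.31e-07). Nucleotide excision repair, with 21 genes, had 6 rises and 5 falls in null BM-MSC (median -0.08) and 4 and 6 in null ASC (median -0.03), with Ercc5 at -1.01 ± 0.06 and -1.52 ± 0.06 the lowest and Rad23b at 1.00 ± 0.05 and 0.63 ± 0.05 the highest. These shares of nucleotide excision genes lay near those of all genes. The 15 other damage tolerance genes had 4 rises and 4 falls in null BM-MSC and 7 and 5 in null ASC, between Poln at -1.35 ± 0.10 and Helq at 0.34 ± 0.05, and between Polk at -1.75 ± 0.09 and Pold3 at 0.92 ± 0.05.

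In the tumor line against null BM-MSC the same lists ended at Rmi2 (-0.81 ± 0.14) and Rad51b for recombination, Ercc4 (-1.02 ± 0.07) and Ube2t (1.28 ± 0.10) for the Fanconi pathway, Parp3 (-1.49 ± 0.08) and Aplf (1.02 ± 0.08) for end joining, and Tlk1 (-0.97 ± 0.06) and Cdc25c (1.16 ± 0.11) for the checkpoint. They ended at Ccnh (-1.79 ± 0.04) and Ercc8 (0.76 ± 0.06) for nucleotide excision, at Rev3l (-1.30 ± 0.05) and Poln (3.28 ± 0.10) for damage tolerance, and at Mutyh (2.11 ± 0.08) above Neil2 for base excision. There, where 34.6% of all genes were higher and 35% lower, 17 of 23 recombination genes were higher and 2 lower, as were 10 and 3 of 16 Fanconi genes and 13 and 1 of 16 mismatch repair genes. End joining had 10 higher and 4 lower of 15, the checkpoint 12 and 2 of 20, and base excision 13 and 2 of 18. Nucleotide excision had 8 higher and 7 lower of 21, near the shares of all genes, and damage tolerance 11 and 3 of 15. Poln, Mlh3 and Rad51b, all below wild type in null BM-MSC, were each above wild-type BM-MSC in the tumor line, by 1.93 ± 0.10, 2.14 ± 0.12 and 1.33 ± 0.09.

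For 10 members the array held several probes. Rad18 probes gave like values, 1.31 and 1.31 in null ASC, and Bard1 probes gave 1.15, 1.29 and 0.41. Fanci gave 1.27 on the probe used and 0.08 on a dimmer one, where the adjusted p was 0.858 in a limma fit over probes. The other probes of Fanca and Polq were well above background on 0 and 2 arrays. The mean over probes, which gives such dim probes equal weight, ended the calls of Fanca and Polq in both null comparisons (limma adjusted p = 0.146 and 0.966 in BM-MSC, 0.185 and 0.0818 in ASC).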

How the data were processed

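Total RNA of 10 mouse cultures, in 5 groups of 2, was measured on single-colour Agilent arrays. The authors deposited scanner files holding spot intensity, which per the file headers came from Feature Extraction 10.7.3.1 and had the background subtracted. The deposited series matrix reads as log2 values (array medians 5.04 to 5.06, r = 0.989 to 0.993 with the scanner values across probes) and was used as an alternative; its normalization is not stated in the sources used here.

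From the scanner files, outlier spots were left out, log2 signals were averaged over the spots of a probe, and each array's 75th percentile of usable non-control spots was subtracted. This left out 37 of the 55681 probes, which lacked a usable spot somewhere. RefSeq tables named 27235 probes by accession, 3581 by symbol (41 more when case was ignored) and 565 by synonym, while 24259 went by the name in the file. The brightest probe stood for a gene, and the 22596 genes with a signal well above background in both cultures of some group were tested with limma (version 3.58.1, R version 4.3.3, files read by the data.table package, version 1.17.8), in 1 model of all 5 groups with 7 contrasts, two-sided, with Benjamini-Hochberg adjustment and a threshold of 0.05. The model had 5 residual and 1.35 prior degrees of freedom, and the median SE of a change was 0.0946. P-values rest on the spread between duplicates, and precision is limited by the small number of arrays. The fit was tested on simulated data.

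A change is given only as a bound where no array of a group was well above background: the brighter group's mean against the dimmer group's mean of, per array, the higher of the lowest signal among probes well above background and the probe's own. Members named array by array were, in each contrast, the 3 largest and 3 smallest changes past the threshold, plus 11 chosen genes. From each list of other pathway genes the largest and smallest called changes were named, except genes not reported here, and values of named genes in further contrasts were added after their values were seen. The members and lists were chosen with earlier results of these data known. Alternatives were background correction, quantile normalization, the series matrix, other filters, the mean over probes, gene names as in the file, fits on the contrast's groups alone, an intensity trend, a replicate block and leaving out each culture.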

Additional observations from a re-analysis of the deposited data

Results flagged for a closer look

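For 19 members the null effect in BM-MSC differed from that in ASC in the limma test of the difference itself. On the log2 scale, BM-MSC minus ASC, the 16 negative differences were -1.31 for Brip1, -1.21 for Fancd2, -1.16 for Exo1, -1.13 for Fanci, -1.07 for Rad54l, -1.06 for Rad18 and -1.05 for Polq. They were -0.96 for Rad51ap1, -0.93 for Fancb, -0.92 for Neil3, -0.81 for Bard1, -0.78 for Fanca and -0.77 for Blm. The smallest were -0.48 for Brca2, -0.37 for Xrcc6 and -0.37 for Fancm. The 3 positive differences were 0.31 for Xrcc5, 0.50 for Lig4 and 0.56 for Nbn.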

How the results depend on the processing

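With single cultures left out, members higher numbered 10 to 16 in null against wild-type BM-MSC, 19 to 21 in ASC, 21 to 24 in the tumor line against null BM-MSC and 24 to 25 against wild-type BM-MSC. Members lower ranged over 0 to 1, 1 to 3, 3 to 6 and 2 to 3 in the same comparisons, and the difference of null effects had 1 to 2 higher and 13 to 16 lower. In null BM-MSC the 1 lower member became 2 with quantile normalization, the series matrix or an intensity trend, and 0 with no filter, the mean over probes or the fit on 2 groups. In null ASC the 3 lower became 1 with normexp or no filter and 0 with the fit on 2 groups. The 3 members with a higher difference became 1 with no filter. With the mean over probes, 3 were lower in the tumor line against null BM-MSC and 1 against wild-type BM-MSC, and the difference for Fanca reversed to 0.055; this setting gives weight to probes not above background. With no filter the median change over all genes was -0.18 in the tumor line against null BM-MSC, against -0.05 in the main setting. Over single members, settings other than leaving out a culture gave 2048 results on the same side of the threshold, 76 that lost a call, 31 that gained one and 1 that reversed; leaving out a culture gave 2034, 109, 27 and none. Otherwise the cause was not tested. Same-numbered cultures did not deviate together (r of -0.122 to 0.116 between groups). This shows no large deviation shared by number, but cannot tell whether same-numbered cultures were handled together. A replicate block ended 4 calls, such as Palb2 in null ASC (adjusted p = 0.0517) and the difference for Nbn (0.0739), and added 1, Brip1 in null BM-MSC against null ASC (0.0291). Requiring probes well above background on all arrays dropped Brca1 and Palb2, whose levels are limited by signal over background.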
